A study of Rattus norvegicus with 12 samples.

Results

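The genes described here encode sensors of foreign or misplaced nucleic acid and the transcription factors that turn interferon genes and interferon targets on. Selected by symbol, they are Ddx58, Ifih1, Dhx58, Tlr3, Zbp1, Irf1, Irf7, Irf9 and Stat2, and all 9 were found among the 14324 genes of the array. Ddx58 is listed as Rig1 in the array annotation and was matched through its RefSeq synonyms. Each of the 9 genes had 1 probe set, so no choice between probe sets was needed.

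The tissue was rings cut from the aorta of male Fisher 344 rats 1 to 2 months old, a culture model in which new vessels sprout from an explant. Rings were embedded in a gel of collagen or of fibrin and kept in serum-free medium, and RNA was taken at day 2. Cultures received 10 ng/ml recombinant rat TNF-alpha, an inflammatory cytokine, or were left untreated, and each of the 4 combinations of gel and treatment has 3 arrays, called collagen or fibrin control and collagen or fibrin TNF. A sample pooled 4 to 6 ring cultures, the titles call the replicates biological, and the labels do not say whether they came from separate animals, so every p-value measures the spread between these pools only. Groups follow the titles, because a tissue label names collagen gel for the fibrin samples as well.

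Levels are array signals as deposited by the authors and read as log2, so that a difference of 1 is a doubling of the array signal. Smooth muscle markers (5 of 6 listed were measured), endothelial markers (4 of 7) and fibroblast markers (6 of 6) gave summed levels of 10.75 to 11.72, 11.40 to 11.89 and 14.81 to 15.28 (log2) over the 12 arrays. A summed level does not by itself show that a cell type was present. A bulk array cannot tell fewer cells of a type from less RNA per cell. The medians of the 12 array columns lay between 5.893 and 5.975.

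RIG-I (gene Ddx58) and MDA5 (Ifih1) bind viral or misplaced double-stranded RNA in the cytosol and signal through the mitochondrial adaptor MAVS, while LGP2 (Dhx58) lacks the signalling domains of the other two and tunes them. TLR3 reads double-stranded RNA in endosomes, and ZBP1 reads nucleic acid in the left-handed Z form and can start necroptosis through RIPK3. These routes activate IRF3 and IRF7, which switch on type I interferon genes. Secreted interferon then acts through its receptor and JAK kinases to bring STAT2 and IRF9 into the complex ISGF3, which binds the interferon-stimulated response element, whereas interferon gamma works mainly at the gamma-activated site and through IRF1. IRF1 is also a known target of NF-kB and so of TNF in vascular cells, and most genes of the family are themselves interferon targets.

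RefSeq promoter sequences (assembly GRCr8, from 250 bases before to 50 bases after the start of the gene) matched 6 of the 9 genes, Ifih1, Tlr3, Irf1, Irf7, Irf9 and Stat2. Both strands were searched for the core of the interferon-stimulated response element (GAAA, then any bases NN, then GAAA), the gamma-activated site (TTCNNNGAA) and the kappa B consensus, which is given by its name. The 4 promoters printed, 5′ to 3′ on the strand of the gene, are those that hold a match, and capitals mark every match. They lie at chr3:67683919-67684218 (minus strand, Ifih1), chr10:38417685-38417984 (plus, Irf1), chr1:205799974-205800273 (minus, Irf7) and chr15:33065586-33065885 (plus, Irf9).
Ifih1: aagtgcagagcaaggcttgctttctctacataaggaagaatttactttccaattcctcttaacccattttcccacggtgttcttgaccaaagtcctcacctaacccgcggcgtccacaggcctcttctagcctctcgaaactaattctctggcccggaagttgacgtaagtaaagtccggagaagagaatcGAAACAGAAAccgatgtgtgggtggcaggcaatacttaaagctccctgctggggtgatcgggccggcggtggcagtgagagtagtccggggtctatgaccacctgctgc
Irf1: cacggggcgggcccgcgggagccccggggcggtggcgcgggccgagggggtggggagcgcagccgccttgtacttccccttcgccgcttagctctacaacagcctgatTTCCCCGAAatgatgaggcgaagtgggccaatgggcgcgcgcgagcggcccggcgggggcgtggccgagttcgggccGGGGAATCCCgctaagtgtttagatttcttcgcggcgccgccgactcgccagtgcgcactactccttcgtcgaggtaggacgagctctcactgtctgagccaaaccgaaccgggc
Irf7: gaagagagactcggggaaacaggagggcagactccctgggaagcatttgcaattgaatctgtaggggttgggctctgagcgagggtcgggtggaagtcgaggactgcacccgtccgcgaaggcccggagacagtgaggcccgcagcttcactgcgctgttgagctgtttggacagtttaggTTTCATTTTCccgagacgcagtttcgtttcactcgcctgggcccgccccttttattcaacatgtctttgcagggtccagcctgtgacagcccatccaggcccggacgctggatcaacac
Irf9: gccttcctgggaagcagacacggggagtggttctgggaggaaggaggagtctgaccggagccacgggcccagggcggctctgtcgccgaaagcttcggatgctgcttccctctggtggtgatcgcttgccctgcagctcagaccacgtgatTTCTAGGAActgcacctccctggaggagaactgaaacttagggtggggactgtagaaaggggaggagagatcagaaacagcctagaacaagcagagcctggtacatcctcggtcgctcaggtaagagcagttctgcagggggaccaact
Ifih1 holds the response element core GAAACAGAAA from base -59 to -50 before the start. In Irf7 the core is read on the opposite strand and appears as TTTCATTTTC from -69 to -60. Irf1 holds the gamma-activated site TTCCCCGAA, which fits the symmetric search pattern on both strands, from -142 to -134, and a kappa B match on the opposite strand, GGGGAATCCC, from -65 to -56. Irf9 holds the gamma-activated site TTCTAGGAA from -99 to -91. The windows of Tlr3 and Stat2 hold none of the 3 patterns, which says only that these letters are not in these windows. Of the 6 promoters here 2, 2 and 1 hold the response element core, the gamma-activated site and the kappa B consensus. The shares are 3.92%, 8.87% and 5.02% of all 33469 promoters of the table. Over the 12381 promoters of genes tested they are 3.52%, 7.64% and 5.98%. The 3 patterns do not overlap in the printed windows, and a match is a description of the letters, not a bound site.

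The 9 genes were higher in fibrin gel than in collagen gel, with Tlr3 short of the threshold in untreated cultures. In untreated cultures 8 of the 9 genes were higher in fibrin than in collagen (limma, Benjamini-Hochberg adjusted p under 0.05 over all genes) and 0 were lower, where 5.35% of all genes were called higher and 5.19% lower. With TNF in both gels all 9 were higher in fibrin, where 4.55% of all genes were called higher and 3.64% lower. All 9 had the 3 fibrin arrays above the 3 collagen arrays in both comparisons, against 14.3% of all genes without TNF and 14.8% with it. The median log2 difference of the 9 genes, fibrin minus collagen, was 1.60 without TNF and 1.49 with it, beside medians of all genes within 0.01 of 0. With each array centred on its median, 1217 genes were called higher in fibrin and 474 lower without TNF (767 and 743 as deposited), and 880 and 387 with TNF (652 and 521), while the 9 genes gave 9 higher and 0 lower in both comparisons.

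**Figure D1:**
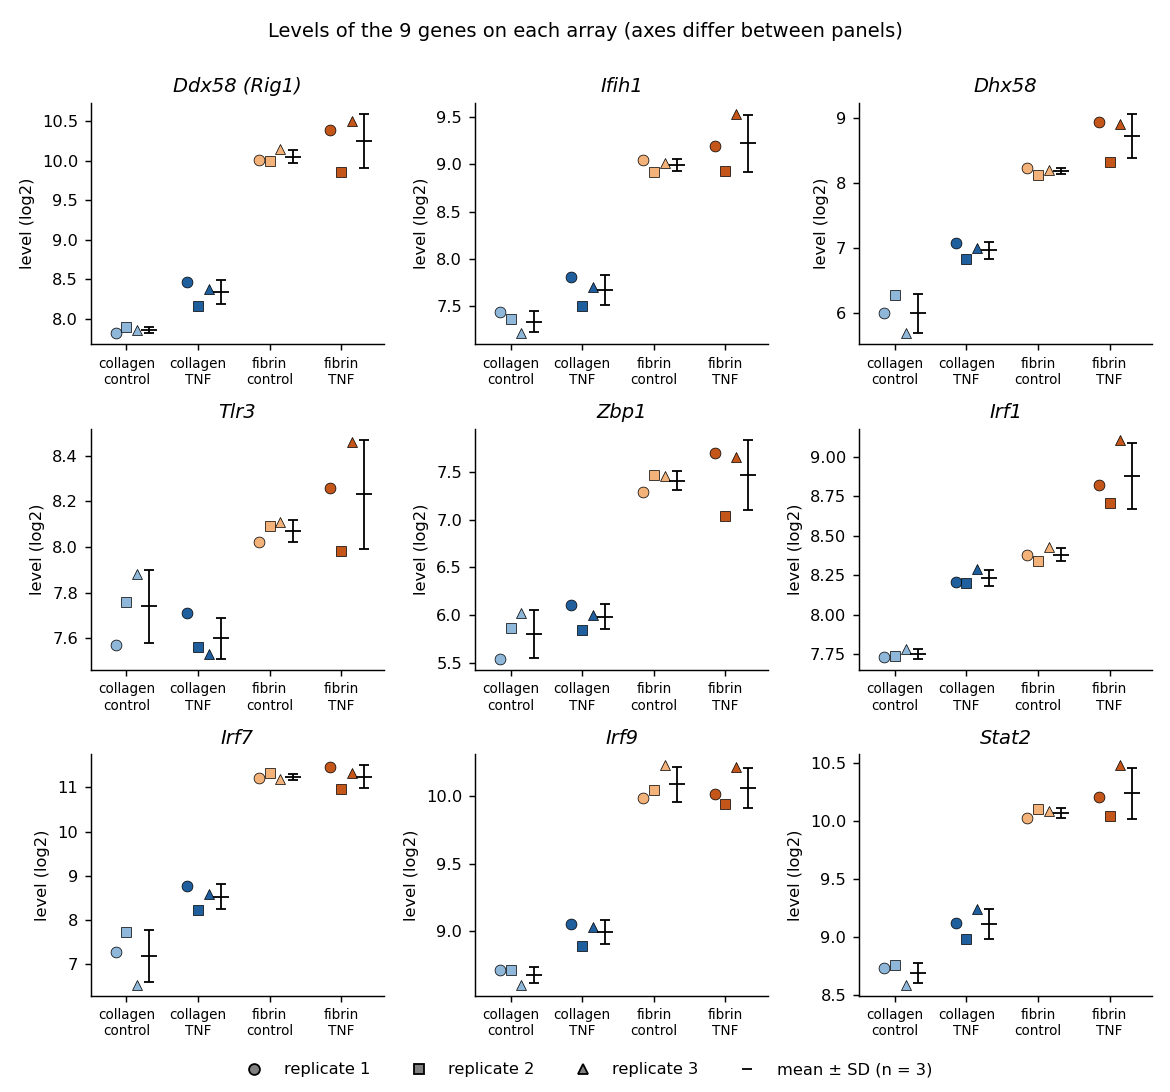
Array levels (log2, vertical axis) of the 9 genes in the 4 groups, 1 panel per gene with its own axis, where symbols are replicates 1 to 3 and bars show the mean ± SD (n = 3). The fibrin arrays lie above the collagen arrays of the same treatment in every panel, and the rise is widest for Irf7, from a mean of 7.18 in collagen control to 11.24 in fibrin control.

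The cytosolic RNA sensors came first. Ddx58 read 7.82, 7.90 and 7.86 (log2, replicates 1 to 3) in collagen control, 8.46, 8.16 and 8.38 in collagen TNF, 10.01, 10.00 and 10.14 in fibrin control, and 10.39, 9.86 and 10.50 in fibrin TNF. The collagen groups did not overlap each other or any fibrin array, while the fibrin groups overlapped. Ddx58 was 4.57-fold higher in fibrin than in collagen without TNF (2.19 ± 0.14 log2, SE, adjusted p = 5.71e-07) and 3.77-fold higher under TNF (1.91 ± 0.14, adjusted p = 4.49e-06). The TNF difference in collagen was 0.48 ± 0.14 and missed the threshold (adjusted p = 0.06), although 5 of 16 alternative settings called it (adjusted p from 0.0176 to 0.0361 in those 5), and in fibrin it was 0.20 ± 0.14 (95% interval -0.10 to 0.50).

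Ifih1, the sensor of long double-stranded RNA, followed the same order of groups at a smaller size. Its levels were 7.44, 7.37 and 7.22 in collagen control, 7.81, 7.5 and 7.70 in collagen TNF, 9.04, 8.92 and 9.01 in fibrin control, and 9.19, 8.93 and 9.53 in fibrin TNF. No collagen array reached a fibrin array, and the fibrin groups overlapped. The fibrin difference was 1.65 ± 0.13 without TNF (3.14-fold, adjusted p = 3.50e-06) and 1.54 ± 0.13 with TNF (2.92-fold, adjusted p = 1.23e-05). The TNF differences were 0.33 ± 0.13 in collagen (adjusted p = 0.186) and 0.22 ± 0.13 in fibrin (adjusted p = 0.463), neither past the threshold.

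Dhx58, the regulator of RIG-I and MDA5, was the only sensor among the 9 genes with a called TNF effect, which was in collagen. It read 5.99, 6.28 and 5.69 in collagen control, 7.07, 6.83 and 7.0 in collagen TNF, 8.22, 8.12 and 8.20 in fibrin control, and 8.94, 8.32 and 8.90 in fibrin TNF. The 4 groups formed 4 steps with no overlap between any of them. TNF raised Dhx58 1.97-fold in collagen (0.98 ± 0.16, adjusted p = 0.00295), and the step in fibrin was 0.54 ± 0.16 (adjusted p = 0.115). Untreated fibrin exceeded untreated collagen 4.57-fold (2.19 ± 0.16, adjusted p = 2.07e-06), and with TNF the matrix difference was 1.75 ± 0.16 (adjusted p = 2.51e-05).

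Fibrin TNF replicate 2 was the lowest fibrin TNF array for all 3 of these sensors. Without it the TNF difference in fibrin was 0.40 for Ddx58 (adjusted p = 0.0393) and 0.74 for Dhx58 (adjusted p = 0.0127), so that 3 of the 9 genes were called in place of 1. Ifih1 was not called under any of the 16 alternatives for that comparison, with 0.37 as its highest value.

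Tlr3, the endosomal receptor, had the smallest matrix difference of the 9 genes, with and without TNF. Its levels were 7.57, 7.76 and 7.88 in collagen control, 7.71, 7.56 and 7.53 in collagen TNF, 8.02, 8.09 and 8.11 in fibrin control, and 8.26, 7.98 and 8.46 in fibrin TNF. All fibrin arrays lay above all collagen arrays, but the treated and untreated arrays of each gel overlapped. The matrix difference without TNF was 0.34 ± 0.11 and missed the threshold (adjusted p = 0.0824), except with each array centred on its median, when it was 0.40 (adjusted p = 0.0393). With TNF the fibrin level was 1.55-fold higher (0.63 ± 0.11, adjusted p = 0.00379). TNF gave -0.14 ± 0.11 in collagen (adjusted p = 0.593) and 0.16 ± 0.11 in fibrin (adjusted p = 0.566), neither of them past the threshold.

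Zbp1, the Z-form sensor, differed by matrix and not detectably by TNF. It read 5.54, 5.86 and 6.02 in collagen control, 6.10, 5.84 and 6.0 in collagen TNF, 7.29, 7.47 and 7.46 in fibrin control, and 7.70, 7.04 and 7.66 in fibrin TNF. The collagen groups overlapped, the fibrin groups overlapped, and the gels did not. Zbp1 was 3.04-fold higher in untreated fibrin (1.60 ± 0.16, adjusted p = 3.18e-05) and 2.81-fold higher in fibrin with TNF (1.49 ± 0.16, adjusted p = 8.64e-05). Its TNF differences were 0.17 ± 0.16 in collagen (95% interval -0.18 to 0.53) and 0.06 ± 0.16 in fibrin (-0.30 to 0.42).

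Among the interferon regulatory factors, Irf7, the main amplifier of type I interferon genes, had the widest range. It read 7.28, 7.72 and 6.54 in collagen control, 8.76, 8.22 and 8.60 in collagen TNF, 11.21, 11.32 and 11.19 in fibrin control, and 11.46, 10.96 and 11.32 in fibrin TNF. Collagen control replicate 3 was the lowest array and the collagen control group the most scattered, at 7.18 ± 0.59 (SD, n = 3). Irf7 was 16.6-fold higher in fibrin than in collagen without TNF (4.06 ± 0.24, adjusted p = 3.64e-07), rank 11 from the highest among the 14324 genes, and 6.58-fold higher in fibrin under TNF (2.72 ± 0.24, adjusted p = 1.63e-05).

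TNF raised Irf7 2.54-fold in collagen (1.34 ± 0.24, adjusted p = 0.00407). In fibrin, where the treated and untreated arrays overlapped at 10.96 to 11.46, the difference was 0.01 ± 0.24 with a 95% interval of -0.51 to 0.52. The difference between these TNF effects, fibrin minus collagen, was -1.34 ± 0.34 and did not pass (unadjusted p = 0.00171, adjusted p = 0.0849). It passed in 1 of 21 alternative settings, without collagen control replicate 2 (-1.61, adjusted p = 0.0284). Over the 21 settings it ran from -1.61 to -1.02, with adjusted p from 0.0284 to 0.192.

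Irf1, the factor that NF-kB and interferon gamma both induce, was the gene of the 9 called for TNF in both gels. Its levels were 7.73, 7.74 and 7.78 in collagen control, 8.21, 8.20 and 8.29 in collagen TNF, 8.38, 8.34 and 8.43 in fibrin control, and 8.82, 8.71 and 9.11 in fibrin TNF. The 4 groups did not overlap. TNF raised Irf1 1.40-fold in collagen (0.48 ± 0.09, adjusted p = 0.00507) and 1.41-fold in fibrin (0.50 ± 0.09, adjusted p = 0.00793), although in a fit of the fibrin arrays alone the adjusted p was 0.0686. The difference between these effects was 0.01 ± 0.13 (95% interval -0.26 to 0.29, adjusted p = 0.977). The matrix differences were also close in size, at 0.63 ± 0.09 without TNF (adjusted p = 0.000446) and 0.65 ± 0.09 with TNF (adjusted p = 0.000514).

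Irf9 and Stat2, which both take part in ISGF3, had similar patterns over the groups. Irf9 read 8.71, 8.71 and 8.60 in collagen control, 9.05, 8.89 and 9.03 in collagen TNF, 9.99, 10.05 and 10.23 in fibrin control, and 10.02, 9.94 and 10.22 in fibrin TNF. The collagen groups were separate from each other and from fibrin, and the fibrin groups covered the same span. Irf9 was 2.67-fold higher in untreated fibrin (1.42 ± 0.09, adjusted p = 6.01e-07) and 2.09-fold higher in fibrin with TNF (1.07 ± 0.09, adjusted p = 1.23e-05). TNF gave 0.32 ± 0.09 in collagen, just outside the threshold (adjusted p = 0.0562) and inside it in a fit with a replicate block within each gel (adjusted p = 0.0317), and -0.03 ± 0.09 in fibrin (adjusted p = 0.913).

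Stat2 levels were 8.73, 8.76 and 8.59 in collagen control, 9.12, 8.98 and 9.24 in collagen TNF, 10.03, 10.10 and 10.09 in fibrin control, and 10.21, 10.04 and 10.48 in fibrin TNF. The arrays formed the same pattern, with separate collagen groups and overlapping fibrin groups. Stat2 was 2.61-fold higher in untreated fibrin (1.38 ± 0.10, adjusted p = 2.03e-06) and 2.19-fold higher with TNF (1.13 ± 0.10, adjusted p = 2.07e-05). TNF raised it 1.34-fold in collagen (0.42 ± 0.10, adjusted p = 0.0282), but the adjusted p was 0.0527 with the replicate block and 0.0568 to 0.115 without any one of collagen control replicates 1, 2 or 3 or collagen TNF replicates 1 or 3. In fibrin its TNF difference was 0.17 ± 0.10 (adjusted p = 0.481).

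Across the 9 genes, TNF in collagen gave 4 calls, all higher (Dhx58, Irf1, Irf7 and Stat2), where 3.27% of all genes were called higher and 3.10% lower, and 7 genes had treated arrays wholly above untreated ones, where 12.7% of all genes did. In fibrin 1 gene was called (Irf1), where 1.65% of all genes were called higher and 1.47% lower, and 2 had treated arrays wholly above (Irf1 and Dhx58), where 10.2% of all genes did. The median of the 9 TNF differences was 0.42 in collagen and 0.17 in fibrin. A direct limma test of the difference between the TNF effects called 0 of the 9 genes, where 0.370% of all genes were called higher and 0.866% lower. At an unadjusted p under 0.05 the test gave 2, Irf7 and Irf9 (-0.35 ± 0.13, unadjusted p = 0.0164). The smaller number of calls in fibrin is therefore not shown to be a smaller effect for any one of the 9. The TNF and matrix comparisons share control arrays, so their values are given side by side and were not correlated.

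**Figure D2:**
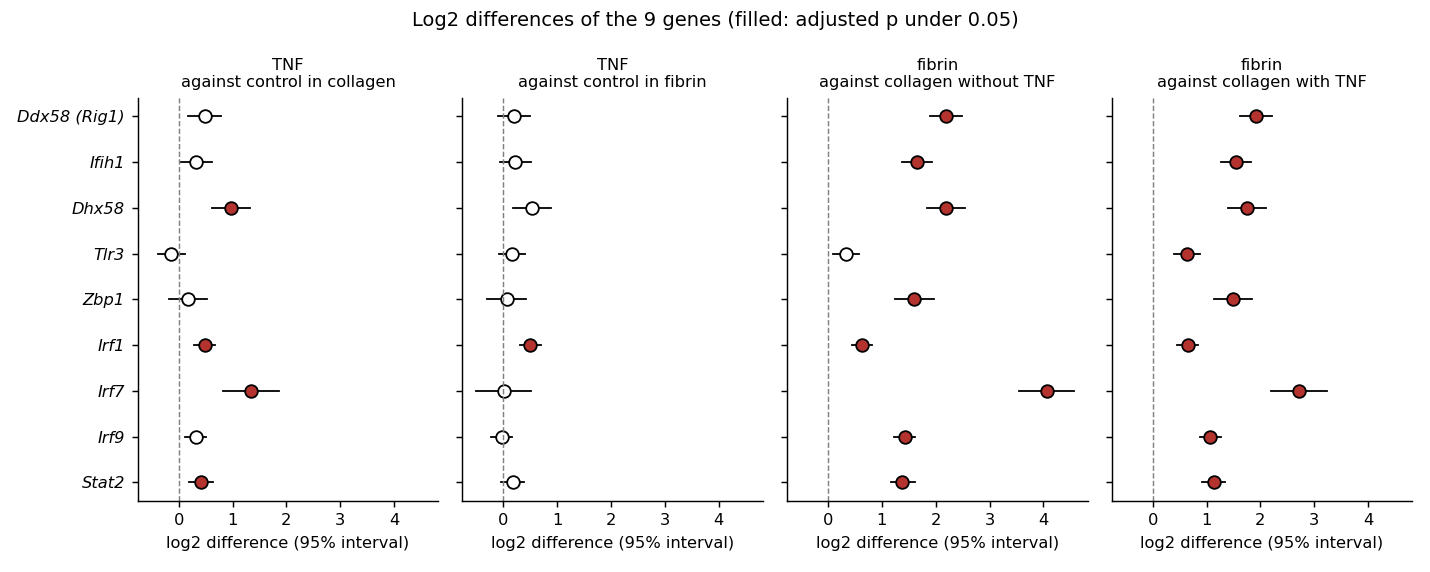
Log2 differences (horizontal axis) of the 9 genes in 4 comparisons, 1 panel each, with 95% intervals from the limma fit and filled points for adjusted p under 0.05. The points for fibrin against collagen sit furthest right, up to 4.06 for Irf7. For TNF in fibrin 1 of 9 is filled, and the points lie nearest 0 for all genes except Irf1 and Tlr3.

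Untreated fibrin and TNF-treated collagen stand next to each other in the order of group means. For 7 of the genes the order from lowest to highest was collagen control, then collagen TNF, then fibrin control, then fibrin TNF. Tlr3 had the collagen groups in the opposite order and Irf9 the fibrin groups, in both cases by less than the spread of the arrays. Untreated fibrin lay above collagen with TNF for 8 of the 9 genes (limma), where 1.47% of all genes were called higher and 1.19% lower, and the arrays did not overlap for all 9, where 9.55% of all genes were so ordered. With centring on the array median, 271 genes were called higher and 122 lower there (210 and 171 as deposited). The differences ran from 0.15 to 2.71 with a median of 1.22. The largest belonged to Irf7 (2.71 ± 0.24, adjusted p = 2.94e-05) and Ddx58 (1.71 ± 0.14, adjusted p = 1.66e-05). Irf1 was the gene not called, at 0.15 ± 0.09 (95% interval -0.05 to 0.34, adjusted p = 0.545), although its 3 fibrin control arrays (8.34 to 8.43) lay above its 3 collagen TNF arrays (8.20 to 8.29). The call for Tlr3 (0.47 ± 0.11, adjusted p = 0.047) was lost in 9 of 15 alternatives, among them leaving out any 1 array of either group (adjusted p from 0.0656 to 0.175).

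Some arrays deviated from their group for all 9 genes at once. Fibrin TNF replicate 2 was below its group mean for all 9 genes, by a median of -0.29 (from -0.43 to -0.12, log2), and fibrin TNF replicate 3 was above it for all 9, by a median of 0.23 (0.07 to 0.31). Collagen TNF replicate 2 was also low for all 9, by a median of -0.14 (-0.31 to -0.03). Over the 36 pairs of the 9 genes, Pearson's r over the 12 arrays ran from 0.75 to 0.99 with a median of 0.96, a range that includes the differences between the group means. After the group means were removed, r ran from 0.08 to 0.90 with a median of 0.655. The highest value was for Tlr3 with Zbp1 (0.90), and the lowest were for Irf7 with Tlr3 (0.08) and Irf7 with Irf1 (0.10). The points of such a correlation share the same 12 RNA pools and the same normalization.

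**Figure D3:**
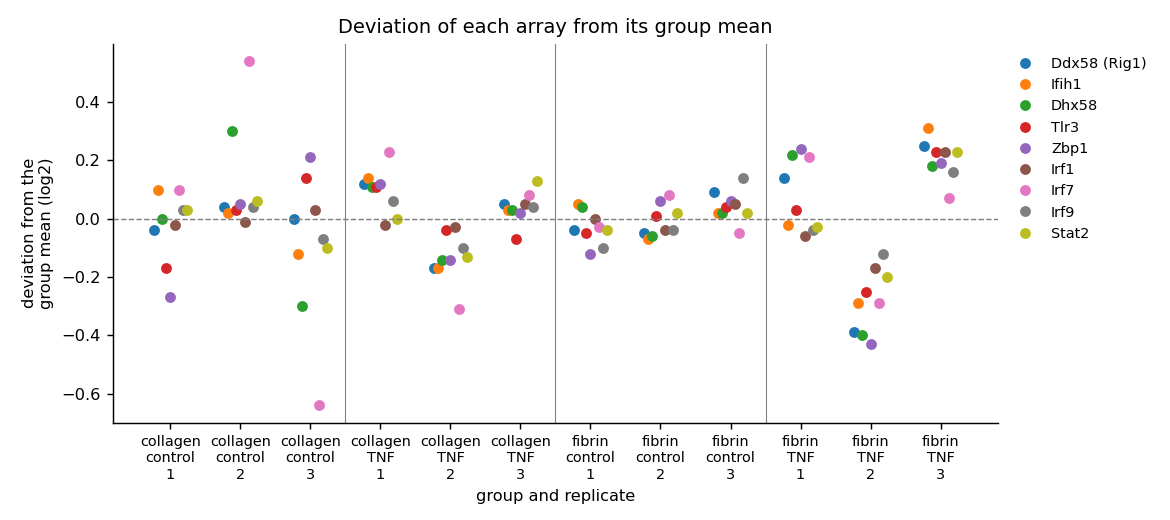
Deviation of each array from its group mean (log2, vertical axis) for the 9 genes, with arrays in columns and genes as colours. All 9 points lie below 0 for fibrin TNF replicate 2 and above 0 for fibrin TNF replicate 3, and the widest deviations belong to Irf7 in collagen control.

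The genes whose levels followed the mean of the 9 most closely over the 12 arrays were interferon targets by their known regulation. They were the GTPase Gbp5 (r = 0.998), the chemokine Cxcl10 (0.995), the GTPase Gbp2 (0.995), the ubiquitin ligase Herc6 (0.994), the GTPase Irgm (0.992), and then Oasl2, Cmpk2 and Rsad2 (0.991 each). Gbp5 rose through the groups with means of 7.88 ± 0.04 in collagen control, 8.54 ± 0.21 in collagen TNF, 10.78 ± 0.07 in fibrin control and 11.44 ± 0.52 in fibrin TNF (log2, SD, n = 3). Genes nearest to a single member differed between members. For Irf1 they were Nfkbia, the NF-kB inhibitor that NF-kB induces (0.983), and, at nearly the same r, Slc25a37 (0.980) and Slc7a11 (0.979). The group means of Nfkbia were 10.03 ± 0.04, 10.73 ± 0.04, 10.84 ± 0.06 and 11.57 ± 0.08 in the same order of groups. For Irf7 they were the class I gene RT1-S3 (0.998) and the antiviral GTPases Mx1 (0.997) and Mx2 (0.996), with RT1-S3 at 8.93 ± 0.24, 9.74 ± 0.17, 11.29 ± 0.04 and 11.28 ± 0.17. For Tlr3 the nearest was the death ligand gene Tnfsf10 (0.960), at 5.11 ± 0.18, 4.82 ± 0.18, 6.53 ± 0.16 and 7.03 ± 0.73. For Stat2 it was Adar (0.996), the editor of double-stranded RNA, for Ddx58 and Ifih1 Cmpk2 (0.996 each), for Irf9 Ifit2 (0.993), for Zbp1 Phf11 (0.994) and for Dhx58 Tap1 (0.990). Genes of the RT1, Mx, Oas and Gbp families have close copies that can share probes. These values of r describe 12 arrays in 4 groups and carry no test.

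Probe sets of the interferon genes read low and none was called. Of 14 listed, 5 were measured, Ifnb1, Ifna4, Ifna5, Ifnk and Ifng, and 0 passed the limma test in any of the 6 comparisons, with an unadjusted p under 0.05 for 1 of them with TNF, fibrin against collagen, and for 0 in the others. Ifnb1, the first interferon gene induced by the sensors, read 3.28 ± 0.25, 3.52 ± 0.16, 3.54 ± 0.17 and 3.37 ± 0.40 in collagen without and with TNF and in fibrin without and with TNF, and Ifng read 3.23 ± 0.06, 3.09 ± 0.01, 3.28 ± 0.20 and 3.31 ± 0.33. The fibrin control arrays of Ifnb1 (3.43 to 3.73) overlapped those of collagen control (2.99 to 3.44). All 5 genes had group means below the array medians of 5.893 to 5.975, and the deposited table does not say whether a probe set is above background, so the absence of a call says little about these genes. The other 9 listed interferon genes are not analysed here.

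Sensors outside the 9 were called mostly in interferon-inducible families. Of 15 measured (25 listed), 6 were higher in fibrin than in collagen without TNF and 0 lower, with a median of 0.20. They were Ifit3 (4.28), Oasl (3.72), Oas1a (3.67), Oasl2 (2.80) and Oas2 (1.77), which all belong to interferon-inducible families, and Tlr7, the endosomal sensor of single-stranded RNA (0.55 ± 0.11, adjusted p = 0.00519). TNF in collagen raised 5 of the 15, Tlr7 among them (0.50 ± 0.11, adjusted p = 0.0143). In fibrin it changed 0 (3 at an unadjusted p under 0.05). Fibrin TNF exceeded collagen TNF for 7.

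Adaptors and kinases that act below the sensors were mostly not called. Of 22 measured adaptors and kinases (28 listed), 4 were higher in untreated fibrin and 1 lower (Zdhhc1), with a median of 0.05. The ubiquitin ligase Trim25, which activates RIG-I, was higher by 0.82 ± 0.11 (adjusted p = 0.000238), the necroptosis kinase Ripk3, partner of ZBP1, by 0.76 ± 0.09 (adjusted p = 0.000164), the IRF kinase gene Ikbke by 0.48 ± 0.08 (adjusted p = 0.00121) and the adaptor Traf3 by 0.29 ± 0.06 (adjusted p = 0.00534). Mavs, the shared adaptor of RIG-I and MDA5, differed by -0.05 ± 0.06 (adjusted p = 0.645), and by 0.01 with each array centred on its median. With TNF, 7 of the 22 were higher in fibrin, Tbk1 among them (0.31 ± 0.08, adjusted p = 0.033, and 0.0809 after quantile normalization). TNF raised 3 in collagen, Traf3 (0.26), Ikbke (0.33) and Ripk3 (0.35). In fibrin it raised Traf3 (0.29 ± 0.06, adjusted p = 0.0144) and lowered Myd88, the adaptor of most Toll-like receptors but not of TLR3 (-0.26 ± 0.06, adjusted p = 0.0385, and 0.0688 with the replicate block within each gel).

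Brakes on sensing gave 5 higher and 1 lower of 19 measured (25 listed) in untreated fibrin, with a median of 0.06. The lower gene was Pcbp2, with a mean of 11.49 in collagen control and 11.25 in fibrin control (log2). Usp18, which shuts the type I interferon receptor off, was higher by 4.15 ± 0.32 (adjusted p = 3.15e-06), the antibody receptor and ligase Trim21 by 1.01 ± 0.11 (adjusted p = 3.91e-05) and the RNA editor Adar by 0.99 ± 0.09 (adjusted p = 9.02e-06). The DNA exonuclease gene Trex1 was higher by 0.66 ± 0.15 (adjusted p = 0.0122) and the RIG-I ubiquitin ligase gene Rnf125 by 0.43 ± 0.11 (adjusted p = 0.0204). TNF in collagen raised 3 of these, Usp18 (1.37), Rnf125 (0.46) and Adar (0.35), and TNF in fibrin changed 0 of the 19 (1 at an unadjusted p under 0.05).

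The interferon regulatory factor genes outside the 9 were mostly not called. Of 7 measured (9 listed), 0 were called in untreated fibrin against untreated collagen (2 at an unadjusted p under 0.05), with a median of -0.01. Irf3, the constitutive partner of IRF7 downstream of the sensors, differed by 0.10 ± 0.11 (adjusted p = 0.635). Irf5, a factor of myeloid cells, was raised by TNF in fibrin (0.43 ± 0.09, adjusted p = 0.0245, and 0.0724 with the replicate block within each gel) and was higher in fibrin than in collagen with TNF (0.45 ± 0.09, adjusted p = 0.00781). Irf8, also a myeloid factor, was lower in untreated fibrin than in collagen with TNF (-0.44 ± 0.10, adjusted p = 0.0402, and 0.0786 with each array centred on its median).

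**Figure D4:**
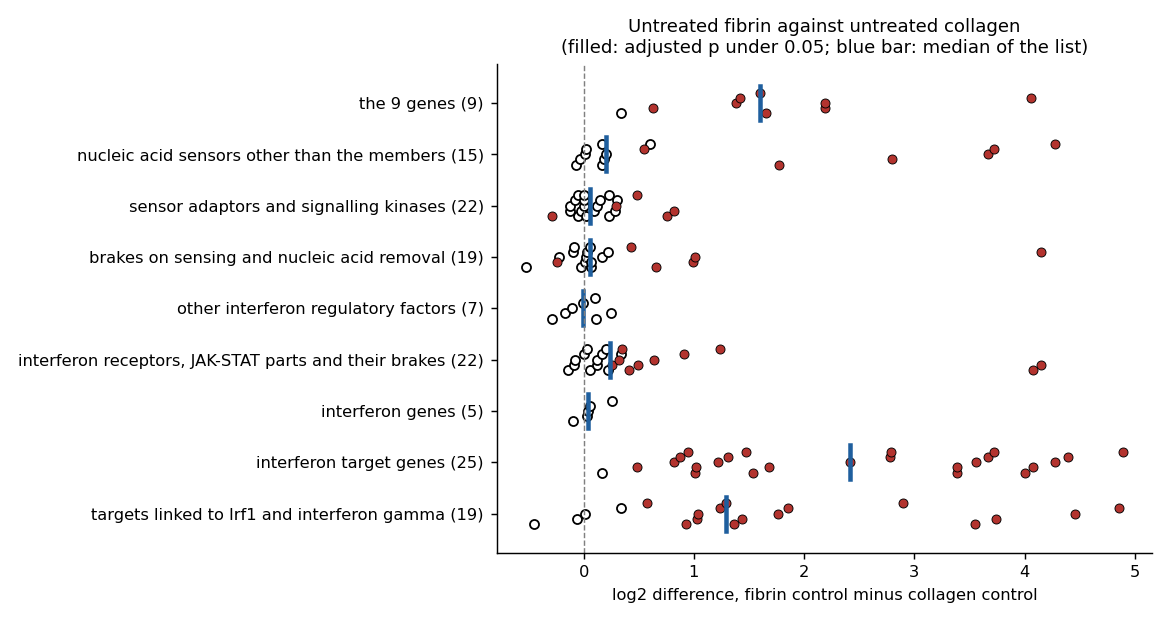
Log2 differences of untreated fibrin minus untreated collagen (horizontal axis) for the 9 genes and 8 pathway lists (number measured in parentheses), with 1 point per gene, filled where the adjusted p is under 0.05, and a blue bar at each median. The 9 genes (median 1.60), the interferon targets (2.42) and the targets linked to IRF1 and interferon gamma (1.29) lie to the right. Other sensors (median 0.20) and receptors with JAK-STAT parts (0.24) lie between, each with some genes far to the right. Adaptors, brakes, other factors and interferon genes centre near 0, with medians from -0.01 to 0.06.

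Receptors, JAK-STAT parts and their feedback genes gave 10 higher and 0 lower of 22 measured (26 listed) in untreated fibrin (median 0.24), and 9 higher and 0 lower with TNF in collagen (median 0.23). Jak2, a kinase of the interferon gamma receptor, rose with TNF in collagen by 1.23 ± 0.10 (adjusted p = 1.04e-05) and in fibrin by 0.46 ± 0.10 (adjusted p = 0.0271), and these effects differed by -0.77 ± 0.14 (adjusted p = 0.0191, and 0.0516 to 0.0558 without collagen control replicate 3, collagen TNF replicate 3 or fibrin control replicate 2). Ifngr1 and Ifngr2, the chains of that receptor, rose with TNF by 0.52 and 0.32 in collagen and by 0.49 and 0.31 in fibrin (SE 0.07 each). Ifnar1, a chain of the type I receptor, rose with TNF in collagen (0.38 ± 0.08, adjusted p = 0.00937) and was higher in untreated fibrin (0.41 ± 0.08, adjusted p = 0.00405). The feedback inhibitor Socs3 followed it (0.65 and 0.64, SE 0.11 each), while Socs1 differed by 0.34 ± 0.12 in untreated fibrin (adjusted p = 0.115). Jak1 differed by -0.14 ± 0.09 (adjusted p = 0.413). Sting1, Cgas, Ticam1, Eif2ak2 and Ifnar2 are not analysed here.

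Most target genes of these factors were higher in fibrin. Of 25 measured interferon targets (28 listed), 24 were higher in untreated fibrin and 0 lower, with a median of 2.42, led in size by Mx1 (4.89 ± 0.27, adjusted p = 2.56e-07), and 24 were higher in fibrin with TNF (median 1.69). TNF raised 14 of them in collagen (median 0.66) and 0 in fibrin (median 0.15, 1 at an unadjusted p under 0.05), and the test of the difference between TNF effects called 2, both lower in fibrin, Bst2 (-1.0 ± 0.16, adjusted p = 0.0082) and Lgals3bp (-0.71 ± 0.12, adjusted p = 0.0121). Of 19 measured genes linked to IRF1 and interferon gamma (24 listed), 15 were higher in untreated fibrin (median 1.29). TNF raised 10 of those 19 in collagen (median 0.61) and 5 in fibrin (median 0.36), including the immunoproteasome subunits Psmb9 (0.85 and 0.48) and Psmb10 (0.72 and 0.59) and the peptide transporter Tap1 (0.63 and 0.34, the latter with adjusted p = 0.0274, and 0.0519 with the replicate block). These lists share genes with one another, such as Isg15 and Usp18 (4.08 ± 0.29 and 4.15 ± 0.32 in untreated fibrin), and their medians are descriptions with no test.

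Most macrophage markers were lower in untreated fibrin, and most markers of other blood cells were not called. Of 9 measured macrophage markers (10 listed), 0 were higher and 7 lower in untreated fibrin, with a median of -0.84. Among the lower were Csf1r (-0.82 ± 0.11), Mrc1 (-1.65 ± 0.19) and Cd163 (-2.19 ± 0.25). By sign 8 were below 0 and 1 above, Adgre1 (0.52, not called), with levels of 9.74 ± 0.48 and 10.26 ± 0.16 (SD, n = 3). Cd68 went from 9.82 ± 0.08 to 9.66 ± 0.01. The summed level of the macrophage markers was 12.54 to 12.84 in collagen control against 12.01 to 12.30 in fibrin control (log2). The summed level of the 9 genes ran the other way, from 10.83 to 10.99 to 12.78 to 12.85. Of 6 measured markers of plasmacytoid dendritic cells (8 listed), which make type I interferon, 2 were higher, Tlr7 and the interferon target Bst2 (2.42 ± 0.11), with a list median of 0.05 and summed levels of 10.60 to 10.72 against 11.29 to 11.39. The level of Bst2 went from 7.57 ± 0.18 to 9.99 ± 0.08 (SD, n = 3), and the other 4 measured markers were not called. Their defining marker Siglech is not analysed here. Of 6 neutrophil markers 2 were higher, S100a9 (0.81 ± 0.19) and Ncf1 (0.43 ± 0.09), with a median of 0.28 and summed levels of 7.56 to 7.66 against 7.87 to 8.13. Of 6 natural killer markers 1 was higher, Klrk1 (1.23 ± 0.14), with a median of 0.13 and sums of 7.08 to 7.37 against 7.33 to 7.64. Of 7 measured T cell markers 1 was lower, Cd4 (-1.17 ± 0.18), which macrophages of the rat also express, with a list median of -0.07. Their summed level, 8.81 to 9.06 against 8.11 to 8.35, is mostly that of Cd4, which went from 8.52 ± 0.21 to 7.35 ± 0.29. Smooth muscle markers gave 2 lower of 5, fibroblast markers 1 lower of 6, and endothelial, conventional dendritic, B cell, adipocyte and Schwann cell markers 0. The part of these cells in the differences of the 9 genes was not tested.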

How the data were processed

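RNA from 12 samples was hybridised to Affymetrix whole-transcript arrays from 200 ng of total RNA, per the labels' protocols. The authors deposited 1 value per probe set and array, read as log2 from a range of 1.44 to 14.07. The submitters' processing notes name limma with no version. Background, summarisation and normalization are not given in the sources used here, nor are scan dates, so no batch could be tested. Of 27342 probe sets, 15097 carry 1 gene symbol, 323 several and 11922 none. The probe set of highest mean stood for each of 14324 genes.

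A linear model with 1 mean for each of the 4 groups was fitted to all arrays together with limma 3.58.1 (R 4.3.3), and its moderated two-sided p-values were adjusted by Benjamini-Hochberg over all genes of a comparison, with 0.05 as the threshold. Errors of differences are standard errors, and errors of levels are SD. The median SE of a difference was 0.09, set by 3 arrays per group. The fit was tested on simulated data drawn independently for each gene and array. That test does not bear on shifts shared by genes or by same-numbered arrays. No 2 columns were identical.

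Deviations from group means of same-numbered arrays correlated at 0.133, 0.139 and 0.144 between the collagen groups. Between the fibrin groups these correlations were 0.248, 0.144 and 0.159. A replicate block within each matrix was therefore run as an alternative setting. The main fit holds no replicate block, because the labels name no shared animal or day, so its p-values take no account of pairing. Between matrices under the same treatment, deviations of same-numbered arrays correlated at 0.0311 to 0.233, and no pairing was taken.

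The 9 genes, the pathway and marker lists and the tests were chosen with earlier results of these data known. Other genes were named from each list as up to 5 called genes of smallest adjusted p and up to 4 uncalled genes of highest mean per comparison, or were fixed by name. Marker genes named in the last paragraph, and any other gene outside this rule, were picked after their values were seen. Likeness named the 8 genes nearest the standardised mean of the 9 and 3 per gene. Settings varied in turn were normalization (quantile, or centring on the array median), removal of the 33.3% of genes of lowest mean, a trended and robust prior, array weights, the replicate block (across all groups, or within each matrix), all probe sets, the mean of a gene's probe sets, only the groups compared, and leaving out each array. Protein sequences were not used here.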

Additional observations from a re-analysis of the deposited data

Results flagged for a closer look

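No difference of the TNF effect between matrices passed the test for any of the 9 genes, but it did for 4 genes named from the pathway lists (limma interaction term, fibrin minus collagen, log2). For Jak2 it was -0.77 (adjusted p = 0.0191). The value for Bst2 was -1.0 (adjusted p = 0.0082). Lgals3bp gave -0.71 (adjusted p = 0.0121). Nos2, the inducible nitric oxide synthase, rose with TNF by 3.44 in collagen and 1.31 in fibrin, a difference of -2.13 (adjusted p = 0.000434).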

How the results depend on the processing

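The values of the 9 genes gave 882 alternative results, of which 828 kept direction and side of the threshold, 16 lost a call, 16 gained one and 22 changed sign. All 8 matrix calls without TNF and all 9 with TNF held under every alternative run. Those that lost a call were Tlr3 in untreated fibrin against collagen with TNF, Stat2 with TNF in collagen, and Irf1 with TNF in fibrin. Changes of sign were all of uncalled values near 0. For Zbp1 with TNF in fibrin the value was -0.03 with array weights and ranged from -0.06 to 0.27 leaving out 1 array. For Irf7 in fibrin it was -0.03 after quantile normalization, -0.01 after centring, -0.05 with array weights and -0.10 to 0.15 leaving out 1 array. For Irf9 in fibrin it was -0.11 to 0.04 leaving out 1 array. The difference of TNF effects for Irf1 was -0.01 after centring and -0.01 with array weights, and -0.10 to 0.10 leaving out 1 array. It was -0.26 to 0.04 for Ifih1 and -0.23 to 0.10 for Zbp1 leaving out 1 array. Mavs in untreated fibrin was 0.01 after centring. For 71 differences of other named genes, 997 of 1113 alternative results kept direction and side, 113 lost a call, 2 gained one and 1 changed sign. With settings other than leaving out an array, calls were lost for TNF in collagen by Ripk3, Usp18 and Adar, for TNF in fibrin by Traf3, Myd88, Irf5, Ifngr2, Jak2, Psmb9 and Tap1, for fibrin against collagen with TNF by Tbk1, for untreated fibrin against collagen with TNF by Irf8, and for the untreated gels by S100a9. Leaving out an array also ended the calls of Tlr7, Traf3, Ikbke, Rnf125 and Ifngr2 for TNF in collagen, of Trex1 and Rnf125 for the untreated gels, of Ifngr1 for untreated fibrin against collagen with TNF, and of the difference of TNF effects for Jak2 (adjusted p up to 0.0558), each in at least 1 case. The count of genes called for TNF in fibrin was 448, and 230 with only the fibrin arrays, when 0 of the 9 were called. For the difference of TNF effects the count was 177, and 294 without dim genes, 339 with the trended prior and 276 with the replicate block across all 4 groups. Leaving out 1 array, the counts of genes ran from 568 to 769 for TNF in collagen (912 with all; 601 and 568 without collagen control replicates 2 and 3, 589 and 568 without collagen TNF replicates 1 and 2), 237 to 539 for TNF in fibrin (242 and 237 without control replicates 2 and 3, 255 and 287 without TNF replicates 1 and 3), 1071 to 1298 and 727 to 1196 for the matrix without and with TNF (with TNF 1173 with all, 727 when collagen TNF replicate 3 and 768 when fibrin TNF replicate 1 was left out), 230 to 292 for untreated fibrin against collagen with TNF (381 with all, 238 and 230 without collagen TNF replicates 2 and 3), and 103 to 246 for the difference (117 and 103 without collagen TNF replicates 1 and 2, 112 without fibrin control replicate 2). The counts among the 9 ran from 3 to 4, 1 to 3, 8 to 8, 9 to 9, 7 to 7 and 0 to 1 in the same order. With the replicate block within each matrix, 1018 and 556 genes were called for TNF in collagen and in fibrin, and 4 and 1 of the 9, with Irf9 in place of Stat2 in collagen. That block was not fitted between matrices, where no pairing was taken. The cause of these changes was not tested. Precision is limited by 3 arrays per group.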
